A study of Mus musculus with 18 samples.

Results

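The genes of glycolysis, glucose uptake and lactate transport were followed in the retina of diabetic and non-diabetic male mice with and without NACET. The set held 35 genes of 35006 in the count tables: glucose transporters, the enzymes of each step from hexokinase to lactate dehydrogenase, the bifunctional enzymes that set fructose 2,6-bisphosphate, the pyruvate dehydrogenase complex and its kinases, and the lactate carriers with their chaperone. The members were taken from the tables by gene symbol, and 34 of them passed the expression filter and were tested among 16183 genes. RNA-seq of 18 retinal libraries was used. WT were C57BL/6J mice (3 libraries) and Akita were C57BL/6-Ins2Akita/J heterozygotes on the same background (4 libraries), both given plain water. WT + NACET (6 libraries) and Akita + NACET (5 libraries) received NACET, the ethyl ester of N-acetylcysteine, at 0.33 mg/mL in the drinking water from week 4 to week 24 of age, a daily dose of 50 mg/kg. The Akita allele is a mutation of the insulin 2 gene that makes heterozygous males diabetic through misfolded proinsulin, so diabetes here is that of insulin deficiency. Sample labels do not say whether libraries came from separate mice, and the p-values cover the spread between these libraries.

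Glycolysis splits glucose into pyruvate, and lactate dehydrogenase can then turn pyruvate into lactate and regenerate the NAD+ that glycolysis needs. Photoreceptors are known for aerobic glycolysis, in which most glucose taken up is turned to lactate although oxygen is present. Glucose reaches them from the choroid through GLUT1 (Slc2a1) of the pigment epithelium, and lactate leaves through monocarboxylate transporters that need basigin (Bsg) to reach the membrane.

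Between 11495596 and 17814480 reads fell in genes per library. Akita replicate 4 stood apart in these data: it had the highest Hk2 and Hk1 and the highest rod marker sum of all libraries. The identity of the tissue was checked on 10 rod markers, whose summed level was between 90059 and 215796 counts scaled to 1000000 per library after TMM (CPM) in all libraries. The reads outside annotated exons made up 9.67% to 13.3% in Akita, 14.9% to 17.1% in WT, 14.3% to 19.8% in Akita + NACET and 9.55% to 16.6% in WT + NACET. With this share as a covariate, edgeR called no member in Akita vs WT, WT + NACET vs WT, the interaction or Akita + NACET vs Akita. In that order, 3, 3, 4 and 3 members had an unadjusted p under 0.05, and called genes over the whole table were 0, 61, 17 and 0. The share in Akita lay below that in WT and in Akita + NACET without overlap. This fit therefore also takes out any group difference that runs along the share. Lens crystallin transcripts reached 26254 CPM in WT + NACET replicate 5, 3096 CPM in Akita replicate 2 and 1389 CPM in Akita + NACET replicate 3, while 13 libraries held between 38.0 and 88.2 CPM.

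In Akita vs WT, the hexokinases Hk1 and Hk2 and the pyruvate dehydrogenase subunit Pdhb were upregulated, and the neuronal glucose transporter Slc2a3 (GLUT3) and Pfkfb3 were downregulated. With NACET, Slc2a3 and Pfkfb3 of Akita retinas rose and Hk1 fell, together with Aldoa, Pgam1 and Pdk3. In WT retinas NACET lowered Pfkfb3 as the 1 member called. Calls were made with edgeR at an adjusted p of at most 0.05 over all genes tested. Without Akita replicate 4 none of the calls in the first 2 comparisons held, and without WT replicate 1 or 2 none held in Akita vs WT.

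The promoters of Hk2 and Pfkfb3 are printed because these genes moved in opposite directions in Akita while both carry the core letters of the hypoxia response element, ACGTG on either strand. The windows are those of RefSeq on build GRCm38.p6, 250 bases before to 50 bases after a start of transcription, and only the 250 bases before the start are shown. Capitals mark ACGTG or its reverse complement CACGT, which overlap as CACGTG in the second Pfkfb3 window.
Hk2, chr6:82774455-82774704, minus strand: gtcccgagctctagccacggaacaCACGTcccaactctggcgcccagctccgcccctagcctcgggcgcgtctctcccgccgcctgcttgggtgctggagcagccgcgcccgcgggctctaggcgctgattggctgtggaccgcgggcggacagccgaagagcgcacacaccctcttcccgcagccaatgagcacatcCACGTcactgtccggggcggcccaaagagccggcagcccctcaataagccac
Pfkfb3 first start, chr2:11553930-11554179, minus strand: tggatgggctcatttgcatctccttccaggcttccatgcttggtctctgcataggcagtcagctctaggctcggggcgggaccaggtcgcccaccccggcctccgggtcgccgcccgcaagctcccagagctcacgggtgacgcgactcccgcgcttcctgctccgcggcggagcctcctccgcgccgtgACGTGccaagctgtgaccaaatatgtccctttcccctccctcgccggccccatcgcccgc
Pfkfb3 second start, chr2:11502091-11502340, minus strand: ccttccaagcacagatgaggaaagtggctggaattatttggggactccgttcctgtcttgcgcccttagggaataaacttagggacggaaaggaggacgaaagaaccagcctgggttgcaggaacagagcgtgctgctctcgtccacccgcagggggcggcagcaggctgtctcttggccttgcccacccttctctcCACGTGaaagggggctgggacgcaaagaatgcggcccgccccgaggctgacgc
Of the 35 members, 31 had at least 1 window, 50 windows in all. ACGTG was found in 22 of these 50 windows, in 18 genes, and in 19.6% of the 32851 windows of all genes. The E-box CACGTG, which contains CACGT, was found in 6 member windows and in 7.15% of all windows. TGACNNNGC, the core of the antioxidant response element, was found in 4 member windows and in 12.4% of all windows. TAATCC, the site of the photoreceptor factor CRX, was found in 5 member windows and in 7.06% of all windows. A match is a description of the letters, and no binding was measured here.

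Levels were compared between members only per kilobase of the longest annotated transcript, as means of 18 libraries. Pkm2, the gene of pyruvate kinase M, led with 2244 CPM per kilobase, before the aldolase Aldoa (1972), Bsg (783) and the lactate dehydrogenase Ldha (687). Among the hexokinases Hk1 (226) stood at a higher level per kilobase than Hk2 (45.1), among the glucose transporters Slc2a1 (85.2) stood above Slc2a3 (12.8) and Slc2a4 (0.359), and among the lactate carriers Slc16a1 (104) stood above Slc16a3 (10.9), Slc16a8 (8.33) and Slc16a7 (0.749). At the low end was Pdk4 with 0.108 CPM per kilobase. The order of these named pairs was the same with the length of all annotated exons, although 18 of 35 levels moved by more than their SD over libraries.

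Some levels are limited by near-identical copies, since reads that aligned to several places were not counted. The share of 32-base windows of the longest coding transcript that were also found elsewhere in the genome was 94.0% for the phosphoglycerate kinase Pgk1, 93.9% for the mutase Pgam1, 85.8% for Gapdh and 77.0% for the enolase Eno1. It was 62.6% for Pkm2, 51.8% for Pdhb, 51.5% for Ldha, 51.3% for Ldhb, 48.2% for Gpi1, 38.7% for Aldoa and 37.8% for the triosephosphate isomerase Tpi1, and below 7% for the other 24 members. Gapdh, a glycolytic enzyme whose transcript is abundant in most tissues, had between 2.76 and 5.16 CPM in these tables. Reads were counted without strand, and exons of a neighbouring gene covered 16.5% of the exon bases of Gpi1, 16.0% of Pdha1 and 15.6% of Slc16a3 and less than 4% in the other members.

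**Figure D1:**
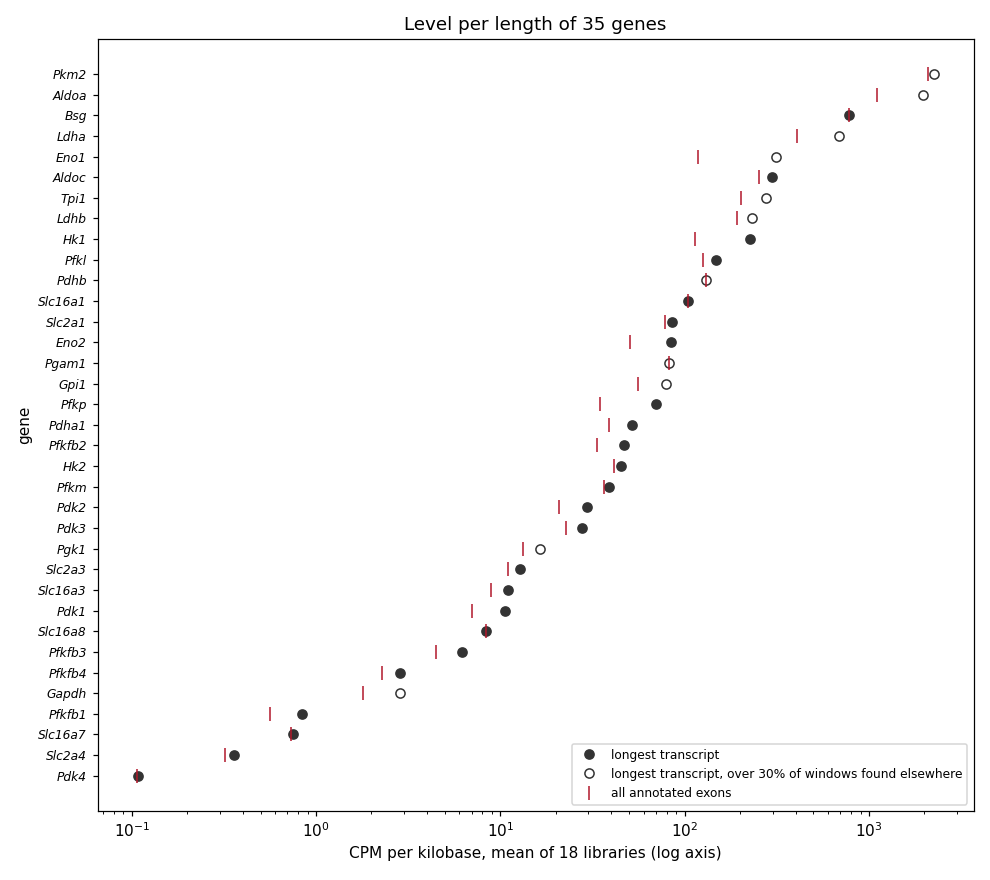
Level per length of the 35 genes, as the mean CPM per kilobase over 18 libraries on a log axis. Circles use the longest transcript (open where over 30% of its windows occur elsewhere in the genome) and red ticks the length of all exons. Pkm2 is at the top with 2244 and Pdk4 at the bottom with 0.108 CPM per kilobase.

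The comparison of Akita with WT asked which of these genes the diabetic genotype changed. Of 34 tested members, 5 were called, 3 higher and 2 lower, against 7.64% of all genes called, 3.96% higher and 3.68% lower. The median difference of the members was 0.20 on the log2 scale and that of all genes was -0.015. Of the tested members, 24 had a positive difference and 10 a negative one. Without Akita replicate 4 no member was called by edgeR, and 8 had an unadjusted p under 0.05 where 16 had it with this library. DESeq2 on all groups called 8 members.

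NACET in Akita was tested by Akita + NACET vs Akita. In this comparison 6 members were called, 2 higher and 4 lower, against 9.65% of all genes, 4.51% higher and 5.14% lower. The median difference of the members was -0.23 and that of all genes was -0.0032. This comparison shares the 4 Akita libraries with Akita vs WT, so the values below are given side by side and opposite signs are not 2 independent results. Without Akita replicate 4 no member was called by edgeR, 14 had an unadjusted p under 0.05, and 1 gene of 16197 was called in all. DESeq2 on all groups called 14 members, 3 higher and 11 lower. Scaled by library size alone, edgeR called 3 higher and 0 lower, so that the calls of Hk1, Aldoa, Pdk3 and Pgam1 were lost, and the median of the members was -0.021.

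NACET in WT was tested by WT + NACET vs WT, where 1.48% of all genes were called, 0.859% higher and 0.624% lower, and 1 of 34 members was called. In Akita + NACET vs WT no member was called by edgeR or by DESeq2, 1 had an unadjusted p under 0.05, and 0.00618% of all genes were called. Between the NACET groups, Akita + NACET vs WT + NACET called 5 members, 3 higher and 2 lower, against 13.3% of all genes, 6.01% higher and 7.26% lower. The interaction, the difference of the NACET effects in Akita and in WT, called 11 members, 3 positive and 8 negative, against 20.3% of all genes, 10.1% positive and 10.2% negative. Scaled by library size alone, the interaction called 4 members as positive and 1 as negative. Scaling by library size alone, without TMM, shifted the median of all genes by -0.21 in Akita vs WT and by 0.20 in Akita + NACET vs Akita, and the share of higher genes among all calls went from 51.8% to 11.6% and from 46.7% to 93.9%. Differences of members are given on the TMM scale, relative to a median of all genes near 0.

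**Figure D2:**
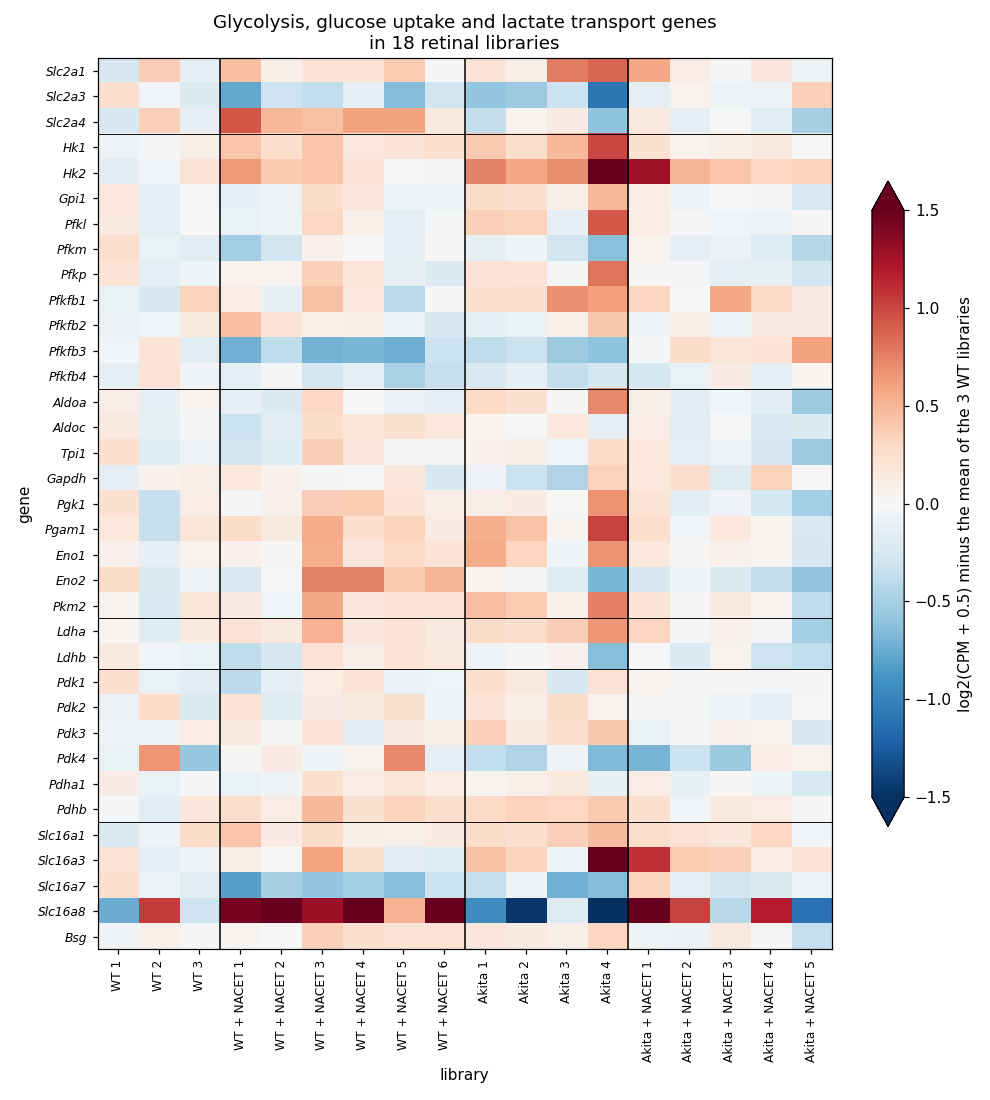
Each library's log2(CPM + 0.5) minus the mean of the 3 WT libraries, for the 35 genes in pathway order and the 18 libraries by group. Akita replicate 4 is the library with the most saturated colours, with Hk2 at 598 CPM and Slc16a3 at 118 CPM, and Slc16a8 varied from 1.99 to 47.6 CPM across libraries.

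Glucose uptake was represented by 3 facilitative transporters. Slc2a3, the high-affinity transporter of neurons (GLUT3, chr6:122677827-122751658 on mm9), had 111, 91.6 and 81.5 CPM in WT and 62.8, 64.3, 75.2 and 43.9 CPM in Akita. With NACET it had 85.2, 97.6, 89.4, 90.5 and 120.5 CPM in Akita, and in WT between 55.0 and 86.6 CPM with a median of 74.2. All Akita libraries were below all WT libraries and below all Akita + NACET libraries. Slc2a3 was downregulated 1.54-fold in Akita vs WT (log2 difference -0.62 ± 0.17 SE, adjusted p = 0.0336) and upregulated 1.57-fold in Akita + NACET vs Akita (0.65 ± 0.15, adjusted p = 0.0207). The difference in WT + NACET vs WT was -0.42 (adjusted p = 0.152), and the interaction was 1.07 ± 0.22 (adjusted p = 0.00418). Without Akita replicate 4 the interaction was 0.94 (adjusted p = 0.00589), and the 2 comparisons within it were at adjusted p = 0.0928 and 0.0683.

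Slc2a1 (GLUT1), the main glucose transporter of the outer retina and of the blood-retinal barrier, had 158, 242 and 169 CPM in WT and 213, 199, 318 and 342 CPM in Akita. It had 279, 202, 183, 209.9 and 177 CPM in Akita + NACET and a median of 213 in WT + NACET, with overlap between all groups. Its difference in Akita vs WT was 0.50 on the log2 scale, with a 95% interval of the fold from 1.06 to 1.88 (adjusted p = 0.114). Slc2a4 (GLUT4), the insulin-dependent transporter of muscle and fat, rested on 4 to 31 reads per library. It had 0.574, 1.12 and 0.662 CPM in WT and 0.491, 0.811, 0.879 and 0.332 CPM in Akita. It had 0.896, 0.648, 0.766, 0.621 and 0.392 CPM in Akita + NACET and 0.886 to 1.90 CPM in WT + NACET. The NACET groups overlapped only just, and Slc2a4 was 2.04-fold lower in Akita + NACET than in WT + NACET (-1.03 ± 0.29, adjusted p = 0.0248).

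Hexokinases trap glucose in the cell by phosphorylation. Hk1 (chr10:61731603-61842656), the housekeeping form, had 762, 797 and 857 CPM in WT and 1059, 967, 1127 and 1612 CPM in Akita. It had 945, 837, 863, 888 and 802 CPM in Akita + NACET and between 900.3 and 1077 CPM in WT + NACET. Akita libraries were all above those of WT and of Akita + NACET. Those of WT + NACET were also all above WT, without a call by edgeR on all groups. Hk1 was upregulated 1.48-fold in Akita vs WT (0.56 ± 0.14, adjusted p = 0.0235) and downregulated 1.37-fold in Akita + NACET vs Akita (-0.46 ± 0.12, adjusted p = 0.025). Without Akita replicate 4 these differences were 0.38 (adjusted p = 0.0558) and -0.28 (adjusted p = 0.0871). The interaction of Hk1 was -0.74 ± 0.17 (adjusted p = 0.00799), and without that library it was -0.56 (adjusted p = 0.00763).

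Hk2 (chr6:82675019-82724448), the inducible hexokinase that photoreceptors express, had 152, 165 and 195 CPM in WT and 285, 254, 276 and 598 CPM in Akita. It had 409, 241, 227, 210.4 and 213 CPM in Akita + NACET and between 167 and 265 CPM in WT + NACET. WT lay below both Akita groups without overlap, while Akita replicate 4 and Akita + NACET replicate 1 stood far above the rest of their groups. Upregulation in Akita vs WT was 2.07-fold (1.05 ± 0.29, adjusted p = 0.0391), and without Akita replicate 4 the difference was 0.67 (adjusted p = 0.103). In Akita + NACET vs Akita the difference was -0.44 (adjusted p = 0.25), and without Akita replicate 4 it was -0.06 (adjusted p = 0.873).

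Pfkfb enzymes make and remove fructose 2,6-bisphosphate, the strongest activator of phosphofructokinase. Pfkfb3 (chr2:11393057-11423728), the member with the highest kinase activity, had 34.6, 41.0 and 31.7 CPM in WT and 27.2, 28.3, 24.3 and 23.3 CPM in Akita. It had 35.1, 43.3, 40.5, 41.1 and 54.1 CPM in Akita + NACET and between 21.2 and 28.2 CPM, with a median of 21.7, in WT + NACET. Both WT + NACET and Akita thus lay below WT and below Akita + NACET without overlap. Pfkfb3 was the member with the most calls. It was downregulated 1.38-fold in Akita vs WT (-0.47 ± 0.14, adjusted p = 0.0449) and 1.52-fold in WT + NACET vs WT (-0.60 ± 0.13, adjusted p = 0.0208). It was upregulated 1.66-fold in Akita + NACET vs Akita (0.73 ± 0.12, adjusted p = 0.0152) and was 1.82-fold higher in Akita + NACET than in WT + NACET (0.86 ± 0.11, adjusted p = 8.74e-05).

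The interaction of Pfkfb3 was 1.33 ± 0.18 on the log2 scale (adjusted p = 0.000387). It was 1.29 without Akita replicate 4 (adjusted p = 0.00101), while the difference between Akita + NACET and Akita was 0.69 (adjusted p = 0.0567). Akita vs WT lost its Pfkfb3 call without WT replicate 1 (adjusted p = 0.138) and without WT replicate 2 (adjusted p = 0.202), and WT + NACET vs WT lost it likewise (adjusted p = 0.0692 and 0.139). Akita + NACET vs WT + NACET kept the call in all 29 alternative fits, with differences from 0.68 to 0.97. The other bifunctional enzymes were not called in this fit (with library size alone Pfkfb4 was called in the interaction). Pfkfb2 had between 277 and 444 CPM, Pfkfb4 between 7.43 and 12.1 CPM and Pfkfb1 between 1.31 and 3.33 CPM.

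**Figure D3:**
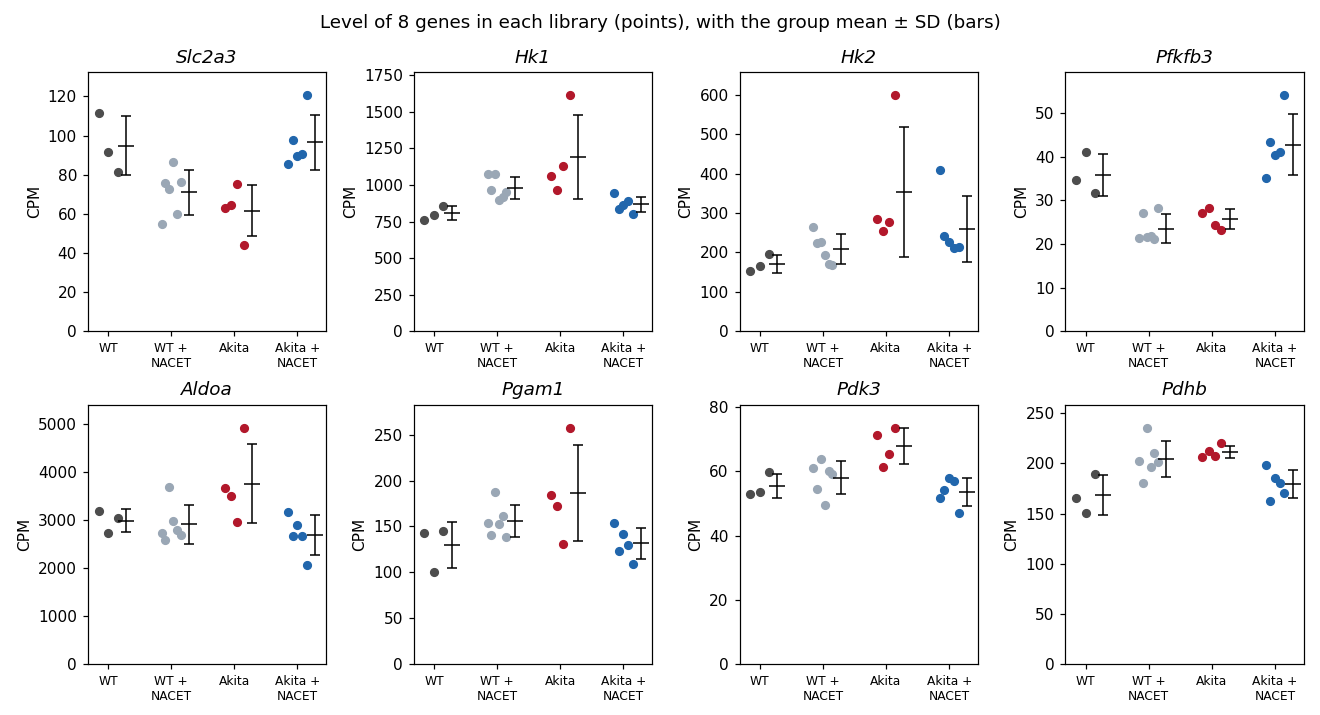
CPM of 8 genes in every library (points), with the mean ± SD of each group (black bars). Slc2a3 and Pfkfb3 were low in Akita and high in Akita + NACET, and Hk1, Hk2, Aldoa and Pgam1 had their highest value of all libraries in Akita replicate 4.

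Of the enzymes from glucose 6-phosphate to pyruvate, 2 were called between Akita + NACET and Akita. Aldoa, the main aldolase, had 3669, 3498, 2961 and 4922 CPM in Akita and 3164, 2677, 2896, 2665 and 2061 CPM in Akita + NACET. In WT it had 3191, 2734 and 3052 CPM and in WT + NACET between 2596 and 3694 CPM. The 2 Akita groups overlapped in Akita replicate 3. Aldoa was 1.40-fold lower in Akita + NACET than in Akita (-0.48 ± 0.14, adjusted p = 0.0387), and without Akita replicate 4 the difference was -0.33 (adjusted p = 0.14).

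Pgam1, a phosphoglycerate mutase, had 184, 172, 131 and 257 CPM in Akita and 154, 124, 142, 129.8 and 109 CPM in Akita + NACET. WT had 142, 100.4 and 145 CPM, and WT + NACET had between 138 and 187 CPM. These groups overlapped. The difference between Akita + NACET and Akita was -0.50 ± 0.15 (adjusted p = 0.0469), and it held in 10 of 29 alternative fits. The difference was -0.30 without Akita replicate 4 (adjusted p = 0.181). The interaction was -0.77 ± 0.23 (adjusted p = 0.0248). In Akita vs WT the difference was 0.52, not called by edgeR on all groups but called higher by DESeq2 on all groups.

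With edgeR on all groups, Eno1 and Pkm2 were called in the interaction only, and DESeq2 on all groups also called both in Akita + NACET vs Akita. Eno1, the ubiquitous enolase, had 588, 519.8 and 587 CPM in WT, 571 to 822 CPM in WT + NACET, 831, 705, 537 and 901 CPM in Akita and 628, 573, 589.8, 587 and 475 CPM in Akita + NACET. Its interaction was -0.60 ± 0.19 (adjusted p = 0.0331), and without Akita replicate 4 it was -0.50 (adjusted p = 0.0603). Pkm2 (pyruvate kinase M) had 4551, 3734 and 4968 CPM in WT, 4253 to 6493 CPM in WT + NACET, 6056, 5734, 4636 and 7406 CPM in Akita and 5033, 4339, 4865, 4485 and 3372 CPM in Akita + NACET. Its interaction was -0.63 ± 0.21 (adjusted p = 0.0387), and without Akita replicate 4 it was -0.51 (adjusted p = 0.0699). For both enzymes the groups overlapped in each comparison.

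Eno2, the enolase of neurons, had 235, 225, 202 and 142 CPM in Akita and 194, 219, 198, 179 and 152 CPM in Akita + NACET. In WT it had 277, 199 and 218 CPM, and in WT + NACET it ranged from 194 to 385 CPM with a median of 313. It was 1.61-fold lower in Akita + NACET than in WT + NACET (-0.68 ± 0.17, adjusted p = 0.0162), a call that held in 26 of 29 alternative fits. Gapdh had 3.52, 4.16 and 4.22 CPM in WT, 3.79, 3.07, 2.76 and 5.14 CPM in Akita, 4.48, 4.83, 3.38, 5.16 and 3.92 CPM in Akita + NACET and 3.27 to 4.52 CPM in WT + NACET. No group of Gapdh stood apart from another. Gpi1, Pfkl, Pfkm, Pfkp, Aldoc, Tpi1 and Pgk1 were not called by edgeR in any of the 6 contrasts (DESeq2 on all groups called Gpi1, Pfkl and Pfkp lower in Akita + NACET vs Akita), and Pfkl ranged from 464 to 977 CPM, Aldoc from 658 to 999.8 CPM and Pgk1 from 19.5 to 44.9 CPM over the libraries.

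Lactate dehydrogenase is a tetramer of LDHA and LDHB subunits, of which LDHA favours the making of lactate. Ldha had 1106, 944 and 1190.2 CPM in WT and 1306, 1289, 1391 and 1682 CPM in Akita. It had 1341, 1057, 1122, 1055 and 754 CPM in Akita + NACET and 1169 to 1539.7 CPM in WT + NACET. Every Akita library was above every WT library, but the test gave a difference of 0.39 with a 95% interval of the fold from 1.05 to 1.64 (adjusted p = 0.108). With edgeR on all groups only the interaction was called (-0.64 ± 0.19, adjusted p = 0.0267). DESeq2 on all groups (adjusted p = 0.0232) and edgeR without Akita + NACET replicate 1 (adjusted p = 0.0254) also called Ldha lower in Akita + NACET vs Akita. Ldhb had 351, 307 and 294 CPM in WT, 306, 311, 330.2 and 204 CPM in Akita, 314, 275, 328, 255 and 245 CPM in Akita + NACET and 243 to 369 CPM in WT + NACET, with overlap between all groups and no call.

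The balance of paralogs was compared as the log2 of the ratio of their CPM, in 5 ratios and 5 pairs of groups. None of the 25 comparisons passed after Benjamini-Hochberg adjustment of 2-sided exact permutation tests. The smallest p is 0.0286 for 3 against 4 libraries and 0.00216 for 5 against 6, the largest sizes compared. With these limits no comparison could pass on its own among 25, so the lack of a pass does not show equal ratios. The Slc2a3 to Slc2a1 ratio was 0.522 ± 0.166 (SD, n = 3) in WT, 0.246 ± 0.0862 (n = 4) in Akita, 0.478 ± 0.135 (n = 5) in Akita + NACET and 0.334 ± 0.0846 (n = 6) in WT + NACET. Akita was below WT by 1.12 on the log2 scale (exact permutation p = 0.0286, adjusted p = 0.179), and Akita + NACET was above Akita by 0.99 (exact permutation p = 0.0238, adjusted p = 0.179). The Hk2 to Hk1 ratio was 0.211 ± 0.0148 (n = 3) in WT, 0.287 ± 0.0570 (n = 4) in Akita, 0.297 ± 0.0779 (n = 5) in Akita + NACET and 0.211 ± 0.0270 (n = 6) in WT + NACET. It was higher by 0.47 in Akita + NACET than in WT + NACET (exact permutation p = 0.00649, adjusted p = 0.162). The Ldha to Ldhb ratio was between 3.08 and 4.04 in WT and between 4.14 and 8.26 in Akita (exact permutation p = 0.0857, adjusted p = 0.198).

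Pyruvate enters the mitochondrion and is oxidized by pyruvate dehydrogenase, which the PDK kinases switch off. Pdhb (chr14:8998505-9005506), the beta subunit of its first enzyme, had 166, 150.2 and 189 CPM in WT and 206, 213, 208 and 219.9 CPM in Akita. It had 198, 162, 185, 181 and 170.3 CPM in Akita + NACET and 181 to 235 CPM in WT + NACET. All Akita libraries were above WT and above Akita + NACET. Pdhb was upregulated 1.26-fold in Akita vs WT (0.33 ± 0.10, adjusted p = 0.0435), a call that held in 12 of 29 alternative fits. It was 0.31 without Akita replicate 4 (adjusted p = 0.0978). Its interaction was -0.52 ± 0.12 (adjusted p = 0.00912) and without Akita replicate 4 it was -0.50 (adjusted p = 0.0133). The interaction takes in the NACET effects of both genotypes. For these, edgeR on all groups called Pdhb neither in Akita + NACET vs Akita (difference -0.24) nor in WT + NACET vs WT. DESeq2 on all groups called it lower in the former and higher in the latter.

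Pdk3 (chrX:91009946-91077540), a kinase of pyruvate dehydrogenase, had 71.3, 61.4, 65.4 and 73.4 CPM in Akita and 51.7, 54.0, 57.9, 57.0 and 46.9 CPM in Akita + NACET. WT had 53.1, 53.6 and 59.7 CPM and WT + NACET had 49.4 to 63.9 CPM. Akita was above both WT and Akita + NACET without overlap. Pdk3 was downregulated 1.27-fold in Akita + NACET vs Akita (-0.34 ± 0.09, adjusted p = 0.0244), and without Akita replicate 4 the difference was -0.30 (adjusted p = 0.0795). In Akita vs WT the difference was 0.29 (adjusted p = 0.0731), and DESeq2 on all groups called Pdk3 higher there. The interaction was -0.41 ± 0.13 (adjusted p = 0.0302), and without Akita replicate 4 it was -0.37 (adjusted p = 0.0513).

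Pdk4, the kinase that fasting and lipid induce in many tissues, did not pass the expression filter, with 1 to 17 reads per library. It had 0.359, 0.959 and 0.120 CPM in WT, 0.210, 0.174, 0.377 and 0.0829 CPM in Akita and 0.0689, 0.236, 0.128, 0.497 and 0.457 CPM in Akita + NACET. In WT + NACET it had 0.341 to 1.01 CPM. These groups overlapped, and a difference was not detectable at this depth. Pdk1, Pdk2 and Pdha1 were not called and ranged from 41.3 to 65.2, from 55.2 to 77.7 and from 123 to 171 CPM.

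Lactate is carried by monocarboxylate transporters of the Slc16a family. Slc16a1 (MCT1), found on photoreceptors, glia and the pigment epithelium, had 346, 388 and 485 CPM in WT and 486, 475, 513 and 560.2 CPM in Akita. It had 483, 467, 453, 498 and 391 CPM in Akita + NACET and 424 to 538 CPM in WT + NACET. The groups overlapped and edgeR called it in none of the comparisons. Its difference in Akita vs WT was 0.33 with a 95% interval of the fold from 1.05 to 1.49 (adjusted p = 0.0912). DESeq2 on all groups called Slc16a1 higher there.

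Slc16a3 (MCT4), a carrier suited to lactate export from glycolytic cells, had 41.7, 33.1 and 35.3 CPM in WT and 49.7, 46.1, 35.3 and 118 CPM in Akita. It had 78.7, 47.6, 47.1, 39.5 and 42.7 CPM in Akita + NACET and 32.3 to 55.2 CPM in WT + NACET. Akita replicate 4 and Akita + NACET replicate 1, the libraries with the highest Hk2, were also the highest here. Its difference in Akita vs WT was 0.76 (adjusted p = 0.171), and without Akita replicate 4 it was 0.25 (adjusted p = 0.564).

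Slc16a7 (MCT2), the high-affinity carrier of neurons, had 2.67, 3.36, 1.95 and 2.07 CPM in Akita and 4.62, 3.12, 2.81, 2.98 and 3.33 CPM in Akita + NACET. WT had 4.24, 3.36 and 3.07 CPM and WT + NACET had 1.78 to 2.73 CPM. WT + NACET was below WT and below Akita + NACET without overlap. It was 1.50-fold higher in Akita + NACET than in WT + NACET (0.58 ± 0.18, adjusted p = 0.0391), and its interaction was 1.08 ± 0.29 (adjusted p = 0.0163). Without WT replicate 1 the interaction of Slc16a7 was 0.93 (adjusted p = 0.0623).

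Slc16a8 (MCT3), the lactate carrier of the basal pigment epithelium, had 4.24, 15.9 and 5.90 CPM in WT and 3.65, 2.37, 6.40 and 1.99 CPM in Akita. It had 24.3, 15.6, 5.42, 17.4 and 3.13 CPM in Akita + NACET and 10.9 to 47.6 CPM in WT + NACET. The values varied widely within each group. All Akita libraries were below all WT + NACET libraries, and every other pair of groups overlapped. With edgeR and TMM none of the comparisons called it, and Akita + NACET vs Akita had a difference of 1.85 (adjusted p = 0.0794). It was called there by edgeR with library size alone (2.02, adjusted p = 0.0457) and by DESeq2 on all groups (adjusted p = 0.0203). The summed level of 12 pigment epithelium markers found in the tables moved with it, from 300.6 to 1955 CPM, with Rpe65, the isomerase of the visual cycle, between 5.27 and 104 CPM. Over the 18 libraries Pearson's r of the log2 levels was 0.94 (permutation p = 1e-05, the smallest that 100000 permutations can give; adjusted p = 5.83e-05) and Spearman's coefficient was 0.91 (adjusted p = 7e-05). Without the 2 libraries farthest from the median, Akita replicate 4 and Akita + NACET replicate 5, r was 0.92, and within groups it was 0.87. Group by group, the marker sum was between 531 and 1443 CPM in WT, 300.6 and 629.5 CPM in Akita, 440.2 and 1044 CPM in Akita + NACET and 1052 and 1955 CPM in WT + NACET, and none of the 12 was at 0. Of the 12, Rlbp1 was also on the list of Muller glia markers, so the sum did not follow pigment epithelium alone. In WT + NACET replicate 5 the sum was 1417 CPM, with Rpe65 at 20.7 CPM and Slc16a8 at 10.9 CPM. The part of pigment epithelium content in the Slc16a8 values was not tested.

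Bsg, the chaperone of MCT1, MCT3 and MCT4, had 1237, 1356 and 1274 CPM in WT and 1447, 1418, 1376 and 1615 CPM in Akita. It had 1225, 1214, 1422, 1305 and 1010.5 CPM in Akita + NACET and 1296 to 1654 CPM in WT + NACET. Akita was above WT without overlap, with a difference of 0.18 (adjusted p = 0.312). The interaction of Bsg was -0.43 ± 0.15 (adjusted p = 0.0434), and it held in 8 of 27 alternative fits. The value without Akita replicate 4 was -0.38 (adjusted p = 0.0663).

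**Figure D4:**
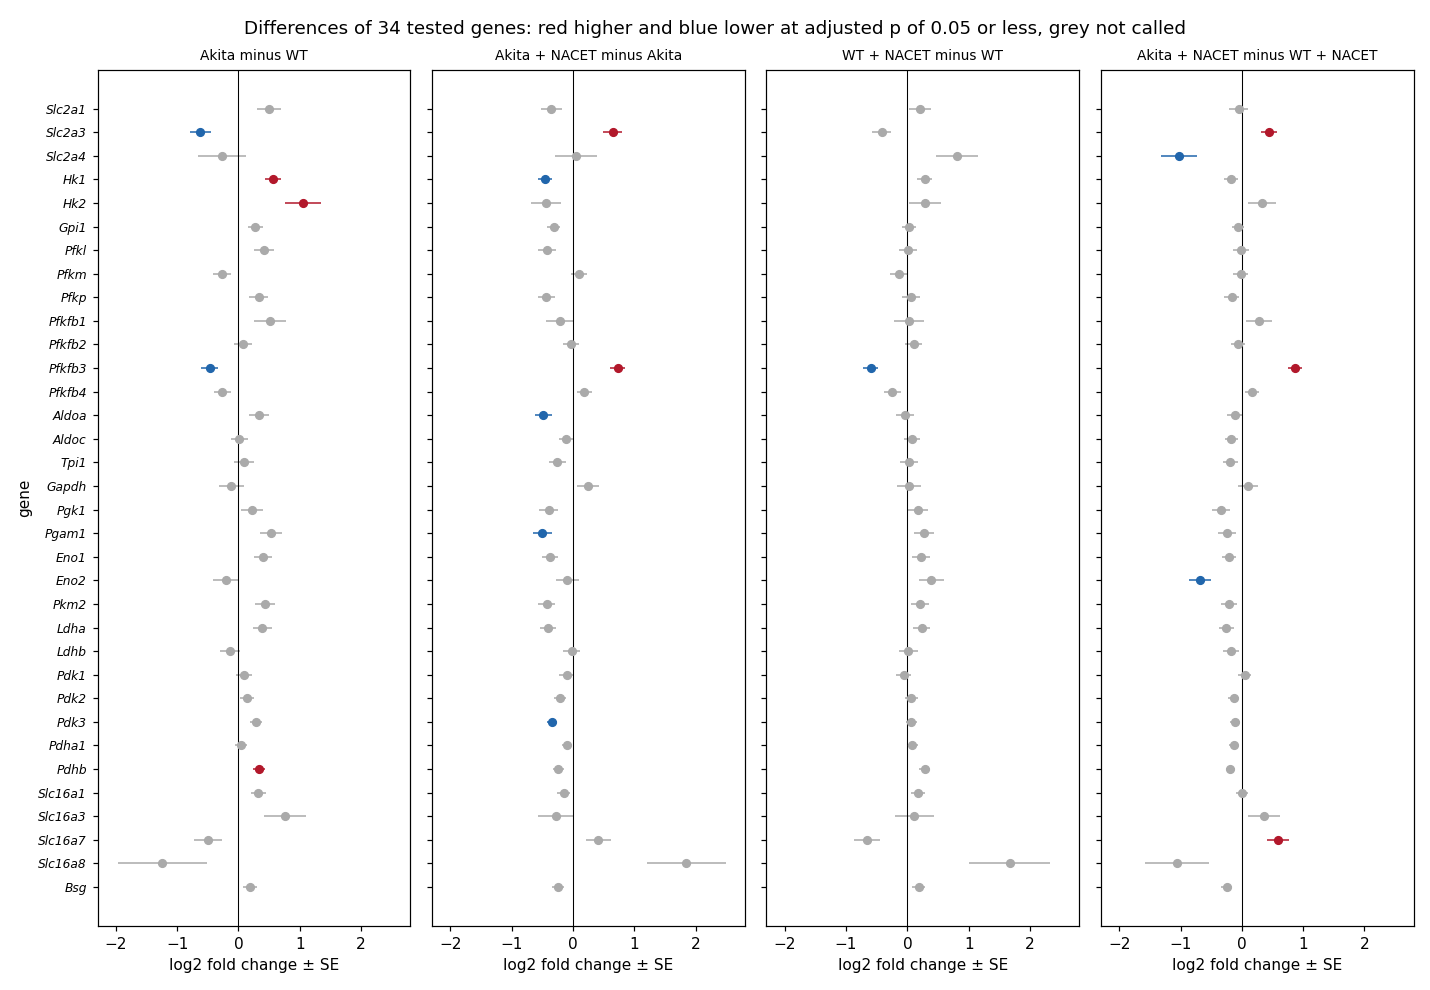
Log2 fold change ± SE of the 34 tested genes in 4 comparisons, with called genes in red (higher) or blue (lower). Pfkfb3 is called in all 4, negative in Akita vs WT (-0.47) and in WT + NACET vs WT (-0.60) and positive in Akita + NACET vs Akita (0.73) and vs WT + NACET (0.86).

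The rod marker level moved with many of these genes. The sum of 10 rod markers was 112435 ± 18820 CPM (SD, n = 3) in WT, 164522 ± 34847 (n = 4) in Akita, 111997 ± 13406 (n = 5) in Akita + NACET and 138115 ± 15945 (n = 6) in WT + NACET. It ranged from 98822 to 133911 CPM in WT, 142253 to 215796 in Akita, 90059 to 123960 in Akita + NACET and 123017 to 164205 in WT + NACET, and no marker was at 0 in any library. Of the markers, 4 were called higher in Akita vs WT and 6 lower in Akita + NACET vs Akita. Without Akita replicate 4, edgeR called 1 gene of 16197 in Akita + NACET vs Akita, so at most 1 of the 6 held. In Akita vs WT 234 of all genes were then called, where 1237 were called with this library. In bulk retina, more cells of a type and more RNA per cell cannot be told apart.

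Correlations of the log2 levels with the rod sum were computed for the 34 tested members over 18 libraries, together with that of Slc16a8 above, 35 in all. Of the 34, 20 passed at an adjusted p of at most 0.05, 17 positive and 3 negative, and all 20 had the same sign within groups. An r of at least 0.5 in size was found for 22 of the 34 members (64.7%) and for 37.6% of the 16183 genes tested. Hk1 had r = 0.92 and a Spearman's coefficient of 0.89 (both with permutation p = 1e-05, the smallest possible, and adjusted p = 5.83e-05 and 7e-05), and Slc2a3 had r = -0.92 and a Spearman's coefficient of -0.92 with the same p-values. Pdk3 had r = 0.89 and a Spearman's coefficient of 0.92 at these p-values too, and Ldha had r = 0.89 and a Spearman's coefficient of 0.84 (adjusted permutation p = 5.83e-05 and 0.000175). Pfkfb3 had r = -0.74 and a Spearman's coefficient of -0.76 (adjusted permutation p = 0.000817 and 0.00171). Without the 2 libraries farthest from the median rod sum, Akita replicate 4 and Akita + NACET replicate 5, r was 0.88 for Hk1, -0.83 for Slc2a3, 0.80 for Pdk3, 0.80 for Ldha and -0.72 for Pfkfb3. Of the 20, 7 had an r below 0.4 in size without these 2 libraries, Hk2 (0.39) among them, so that their relation rested on those libraries.

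**Figure D5:**
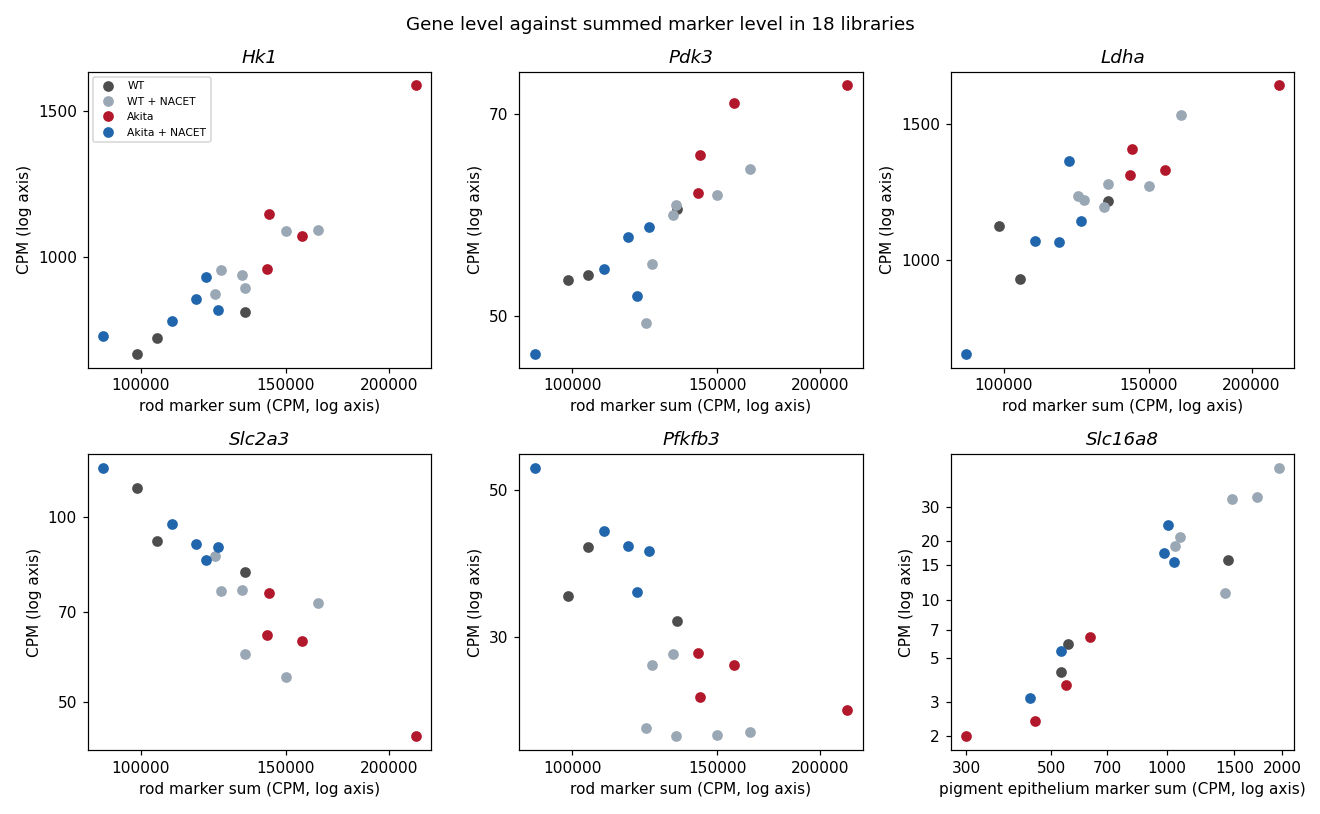
CPM of 6 genes against the summed CPM of rod markers (first 5 panels) or pigment epithelium markers (last panel) in 18 libraries, on log axes and coloured by group. Hk1, Pdk3 and Ldha rose with the rod sum and Slc2a3 and Pfkfb3 fell with it, and Slc16a8 rose with the pigment epithelium sum from 1.99 to 47.6 CPM.

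With the log2 rod sum as a covariate, an alternative added after seeing the data, edgeR called no member in the interaction, in WT + NACET vs WT, in Akita + NACET vs Akita or in Akita vs WT, with 2, 5, 3 and 0 members at an unadjusted p under 0.05. Called genes over the whole table were then 13, 83, 0 and 0. Pfkfb3 (0.68, adjusted p = 0.00147) and Eno2 (-0.77, adjusted p = 0.0453) kept their calls between Akita + NACET and WT + NACET, and Hk2, not called there without the covariate, was called as higher. The rod sum was itself measured in these libraries and differed between the groups, so this fit also takes out any group difference that runs along it. Its part in the results was not tested further.

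Markers of other cells moved too. Of 6 tested amacrine cell markers, 4 were called lower in Akita vs WT (list median -0.60) and none in Akita + NACET vs Akita, where 4 had an unadjusted p under 0.05 with edgeR. Their sum was 544.8 to 735.7 CPM in WT, 327.7 to 495.5 in Akita, 509 to 591.8 in Akita + NACET and 429.2 to 583.8 in WT + NACET. Of 8 cone markers, 4 were called lower in Akita + NACET vs Akita, and of 10 microglia markers 7 were called lower in Akita + NACET than in WT + NACET. The 12 endothelial markers summed to 167 ± 22.8 CPM (SD, n = 3) in WT, 137 ± 22.8 (n = 4) in Akita, 171 ± 11.1 (n = 5) in Akita + NACET and 167 ± 21.7 (n = 6) in WT + NACET. The sums of WT and Akita overlapped. Cldn5, a tight junction gene of endothelium, was called lower in Akita vs WT (-2.11 ± 0.59, adjusted p = 0.0365) and higher in Akita + NACET vs Akita (2.14 ± 0.54, adjusted p = 0.0239). Its level was low, with 0.963 to 2.56 CPM in WT, 0.126 to 0.580 CPM in Akita and 0.784 to 2.77 CPM in Akita + NACET. Without Akita replicate 4, edgeR called 1 gene of 16197 in Akita + NACET vs Akita, as lower. The Cldn5 call there was thus lost, and at most 1 of the cone calls held. Cdh5, Tek, Tie1 and Emcn were at 0 in 1 or 2 libraries each. Slc2a3 and Pfkfb3 had the same directions, and the part of vessel, amacrine, cone or microglia content in any member was not tested.

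Neighbouring pathways were followed in 10 lists of 174 genes, of which 170 were found in the tables and 153 tested. In Akita + NACET vs Akita edgeR called 20 of them, against 9.65% of all genes. Without Akita replicate 4 it called 0 of them and 1 of all genes, with 45 of the listed genes at an unadjusted p under 0.05 where 44 had it before. In Akita vs WT it called 6, against 7.64% of all genes, of which only Slc16a11 and Prkab1 were called without that library. All other list calls named below in these 2 comparisons were lost without it. Between the NACET groups 25 listed genes were called, against 13.3% of all genes, and in the interaction 34, against 20.3%. In WT + NACET vs WT 1 was called, against 1.48%. Of 18 tested enzymes that branch from glycolysis, only Bpgm, which makes 2,3-bisphosphoglycerate, was called in Akita vs WT (higher, 0.49 ± 0.13, adjusted p = 0.0273) and in Akita + NACET vs Akita (lower, -0.43 ± 0.11, adjusted p = 0.0239). Between the NACET groups the hexokinase-like Hkdc1 (-1.02 ± 0.20, adjusted p = 0.00404) and the galactokinase Galk1 (-0.36 ± 0.12, adjusted p = 0.0445) were lower in Akita + NACET. In the interaction, Bpgm was at -0.78 (adjusted p = 0.00418), 9630033F20Rik at -0.58 (adjusted p = 0.0375) and the D-lactate dehydrogenase Ldhd at 1.06 (adjusted p = 0.0434), 3 of the 4 called there.

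Among 8 tested glucose transporters outside the set, Slc2a13, a proton-coupled myo-inositol carrier, was higher in Akita + NACET than in Akita (0.78 ± 0.19, adjusted p = 0.0218) and had an interaction of 0.96 (adjusted p = 0.0197). Slc2a12 (GLUT12) was lower in Akita + NACET than in WT + NACET (-1.09 ± 0.27, adjusted p = 0.0127). Of 10 other monocarboxylate transporters, only Slc16a11 was called, lower in Akita vs WT (-1.10 ± 0.23, adjusted p = 0.0162) and higher in Akita + NACET vs Akita (1.07 ± 0.21, adjusted p = 0.0161), with an interaction of 1.51 (adjusted p = 0.00297). It had 4.67 to 6.95 CPM in WT, 1.99 to 3.51 CPM in Akita and 4.34 to 7.31 CPM in Akita + NACET, and its Akita libraries did not overlap with the others named.

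The pentose phosphate pathway makes NADPH and ribose from glucose 6-phosphate. None of its 11 tested genes was called by edgeR in Akita vs WT (5 with an unadjusted p under 0.05). In Akita + NACET vs Akita 4 were lower, 1 higher and 6 not called, against 5.14% of all genes lower and 4.51% higher. Transaldolase (Taldo1) fell by 0.43 ± 0.10 on the log2 scale (adjusted p = 0.021), 6-phosphogluconate dehydrogenase (Pgd) fell by 0.28 ± 0.07 (adjusted p = 0.0227), and the isomerase Rpia, at 0.377 to 1.96 CPM, rose by 0.97 ± 0.31 (adjusted p = 0.0496). Taldo1 (-0.33, adjusted p = 0.0274) and Prps2 (-0.54, adjusted p = 0.0368) were also lower in Akita + NACET than in WT + NACET. The interactions of Pgd (-0.44, adjusted p = 0.00791) and Taldo1 (-0.57, adjusted p = 0.014) were negative.

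The tricarboxylic acid cycle, which oxidizes what pyruvate dehydrogenase delivers, had 19 tested genes. In Akita vs WT 1 was called, citrate synthase (Cs), higher by 0.35 ± 0.09 (adjusted p = 0.0263), and 18 had a positive difference. In Akita + NACET vs Akita 5 were lower and none higher, against 5.14% of all genes lower. Cs was at -0.34 ± 0.08 (adjusted p = 0.0206) and malate dehydrogenase 2 (Mdh2) at -0.34 ± 0.09 (adjusted p = 0.0316). Between the NACET groups 6 were lower in Akita, against 7.26% of all genes, with Sdhd at -0.38 ± 0.09 (adjusted p = 0.0111) and Idh3g at -0.29 ± 0.08 (adjusted p = 0.0209). In the interaction 8 were negative, against 10.2% of all genes, among them Sdhd (-0.58, adjusted p = 0.0111) and Cs (-0.41, adjusted p = 0.0174). The list's median difference was 0.16 in Akita vs WT and -0.23 in Akita + NACET vs Akita. Of 12 other genes of pyruvate dehydrogenase and pyruvate import, 1 was called, the pyruvate carrier gene Brp44 (Mpc2), lower in Akita + NACET than in WT + NACET (-0.30 ± 0.08, adjusted p = 0.0229).

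Hypoxia-inducible factor drives many glycolytic genes, and 22 genes of its pathway were tested. Hif1a, its oxygen-regulated subunit, was higher in Akita vs WT (0.41 ± 0.11, adjusted p = 0.0307) and lower in Akita + NACET vs Akita (-0.31 ± 0.09, adjusted p = 0.0441), with an interaction of -0.50 (adjusted p = 0.0177). In Akita + NACET vs Akita Vegfa, the growth factor of vessels, was also called as higher (0.67 ± 0.17, adjusted p = 0.0273) and Ndrg1 as lower (-0.47 ± 0.14, adjusted p = 0.0397). Between the NACET groups 7 were higher in Akita and none lower, against 6.01% and 7.26% of all genes. They were led by the demethylase Kdm3a (0.56 ± 0.10, adjusted p = 0.00225) and Vegfa (0.81 ± 0.16, adjusted p = 0.00338). The activity of the factor was not tested. In WT + NACET vs WT the peptide hormone Adm was lower (-1.43 ± 0.34, adjusted p = 0.0362). The interactions of Vegfa (1.20, adjusted p = 0.00465) and P4ha2 (1.10, adjusted p = 0.00786) were positive and that of Vhl was negative (-0.35, adjusted p = 0.0252).

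Of 19 tested glycogen genes, Gaa (0.30 ± 0.09, adjusted p = 0.0401) and Ppp1r3d (0.60 ± 0.19, adjusted p = 0.0499) were higher and the phosphorylase Pygm lower (-0.31 ± 0.09, adjusted p = 0.0414) in Akita + NACET vs Akita. The interactions of Phka1 (0.64, adjusted p = 0.0257) and Gaa (0.37, adjusted p = 0.0452) were positive. Of 12 tested regulators of the response to carbohydrate, the AMPK subunit Prkab1 was higher in Akita vs WT (0.83 ± 0.16, adjusted p = 0.0151) and lower in Akita + NACET vs Akita (-0.71 ± 0.14, adjusted p = 0.0161), with an interaction of -1.12 (adjusted p = 0.0024). The catalytic subunit Prkaa2 was higher in Akita + NACET than in WT + NACET (0.37 ± 0.08, adjusted p = 0.00597), with an interaction of 0.39 (adjusted p = 0.0327).

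A list drawn up around Pdk4, which responds to PPAR and FOXO factors, had 22 tested genes. It held such factors themselves, Ppard among them, and genes listed as their responders. Which factor acts on any of these genes was not tested. Ppard was higher in Akita vs WT (0.72 ± 0.20, adjusted p = 0.0383), and none was called by edgeR in Akita + NACET vs Akita or in WT + NACET vs WT, where 2 and 4 had an unadjusted p under 0.05. Between the NACET groups Per1 (0.84 ± 0.16, adjusted p = 0.00385) and Fkbp5 (0.79 ± 0.22, adjusted p = 0.0268) were higher and Acot1 (-0.55 ± 0.16, adjusted p = 0.0319) lower in Akita. In the interaction Per1 was positive (0.80, adjusted p = 0.0361) and Cpt1a negative (-0.52, adjusted p = 0.0371).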

How the data were processed

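RNA of 18 male mouse retinal samples was sequenced as poly(A) libraries, single end. The deposited files hold raw counts per gene, which the authors made by aligning reads to mm9 with TopHat 2.1.0 and counting uniquely aligned reads over exons without strand with HTSeq 0.11.2. From these counts, 185 rRNA genes were removed, CPM were computed per 1000000 of the TMM-scaled library size, and edgeR 4.0.16 (R 4.3.3) was used for quasi-likelihood F tests over all 4 groups with TMM factors, a minimum count of 10 (15 in total) and Benjamini-Hochberg adjustment over 16183 genes. Fold changes are given with SE from the F statistic, and intervals use the matching t quantile. DESeq2 1.42.0, other scalings, filters, covariates and left-out libraries were alternatives, and paralog ratios were compared by exact permutation tests with 0.5 CPM added. Groups were taken from the sample labels. Depth was 11495596 to 17814480 reads in genes, and Pdk4 was left out of the tests. Values were given per library (in WT + NACET by their range) for each member called in at least 1 contrast, for Pdk4 and for 12 members chosen by role whether called or not. Of each pathway list, called genes with a mean of at least 1 CPM were named, at most 2 per direction and contrast by smallest p. Members and lists were chosen with earlier results of these data known. The script for the fits was tested on simulated data.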

Additional observations from a re-analysis of the deposited data

Results flagged for a closer look

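In 66 groups of 4 to 6 libraries over 22 members, 8 had 1 library far from the others by Dixon's test at the 95% level, which chance gives in about 1 of 20 groups. Hk2 was at 598 CPM in Akita replicate 4 and at 409 CPM in Akita + NACET replicate 1. The same Akita + NACET library held Slc16a3 at 78.7 CPM and Slc16a7 at 4.62 CPM. WT + NACET replicate 3 held Aldoa at 3694 CPM, Pkm2 at 6493 CPM and Ldha at 1539.7 CPM, and Pdk4 was at 1.01 CPM in WT + NACET replicate 5.

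By the interaction term of edgeR (log2, adjusted p of at most 0.05) the NACET effect differed between Akita and WT in 11 of 34 tested members. Of all genes tested, 20.3% were called there. It was positive for Pfkfb3 (1.33), Slc16a7 (1.08) and Slc2a3 (1.07). It was negative for Pgam1 (-0.77), Hk1 (-0.74), Ldha (-0.64), Pkm2 (-0.63), Eno1 (-0.60), Pdhb (-0.52), Bsg (-0.43) and Pdk3 (-0.41). The interaction takes all 4 groups, and without Akita replicate 4 it called 7 of the members. With the share of reads outside exons or the rod sum as a covariate it called 0.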

How the results depend on the processing

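Counts are given in the order Akita vs WT, Akita + NACET vs Akita, WT + NACET vs WT, Akita + NACET vs WT + NACET and interaction, for members called and, after "lists", for genes of the pathway lists; Akita + NACET vs WT called 0 in every fit. The fit of the report called 5, 6, 1, 5 and 11 members and, in the lists, 6, 20, 1, 25 and 34 genes. DESeq2 on all groups called 8, 14, 2, 6 and 11 (lists 15, 28, 4, 31 and 38). On the 2 groups compared, DESeq2 called 6, 11, 3 and 6 (lists 8, 21, 8 and 33) and edgeR 0, 2, 1 and 5 (lists 0, 4, 2 and 26). Library size alone gave 4, 3, 1, 5 and 5 (lists 11, 18, 3, 18 and 29). No filter gave 2, 5, 1, 3 and 9 (lists 6, 8, 1, 17 and 18), and a mean count of at least 50 gave 5, 6, 1, 3 and 10 (lists 7, 21, 1, 26 and 33). A covariate for the percent of reads outside exons gave 0, 0, 0, 1 and 0 (lists 0, 0, 0, 3 and 0). The rod marker level, added after seeing the data, gave 0, 0, 0, 3 and 0 (lists 0, 0, 1, 13 and 0). Over all genes the first covariate gave 0, 0, 61, 194 and 17 calls and the second 0, 0, 83, 979 and 13. DESeq2 size factors and keeping rRNA genes left the member counts equal. The cause of these differences was not tested.

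With the replicate number as a block, edgeR called 0, 1, 1, 2 and 7 members (lists 2, 2, 0, 13 and 17). After each gene's group mean was subtracted from its log2 levels, same-numbered libraries of 2 groups correlated over genes between -0.393 and 0.391. The labels do not say whether equal numbers mean a pairing, and so few correlations cannot exclude one.

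Leaving out each library in turn gave 0 to 6, 0 to 11, 0 to 1, 1 to 6 and 5 to 13 members (lists 0 to 10, 0 to 20, 0 to 4, 10 to 29 and 11 to 36). Akita vs WT called 0 members without WT replicate 1, WT replicate 2 or Akita replicate 4, 2 without Akita replicate 1 or Akita + NACET replicate 2, and 3 without WT + NACET replicate 4 or Akita + NACET replicate 3 or 4. Akita + NACET vs Akita called 0 without Akita replicate 4, 1 without Akita + NACET replicate 5, 2 without Akita + NACET replicate 2, 3 without Akita replicate 1, 4 without WT replicate 3 or Akita + NACET replicate 4, 9 without Akita + NACET replicate 1, 10 without WT + NACET replicate 3 and 11 without Akita replicate 3. WT + NACET vs WT called 0 without WT replicate 1, WT replicate 2 or WT + NACET replicate 3. Akita + NACET vs WT + NACET called 1 without Akita + NACET replicate 5 2 without Akita + NACET replicate 2 or 4, and 3 without WT + NACET replicate 1, 3 or 5. The interaction called 5 without WT replicate 1, 6 without WT replicate 2 and 7 without WT + NACET replicate 3, Akita replicate 1 or 4, or Akita + NACET replicate 5. Of 787 alternative values of the 28 called member results, 567 kept the call, 216 lost it and 4 turned sign. Of 1553 for the lists, 1153 kept it, 399 lost it and 1 turned sign. No paralog ratio passed under any alternative, which with exact tests of these sizes and 25 comparisons says nothing about stability.

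Turned signs with the rod covariate were, in Akita vs WT, Ldha -0.035, Pgam1 -0.010, Pkm2 -0.060 and Slc16a3 -0.18, in Akita + NACET vs Akita, Hk2 0.35, Ldha 0.0039, Pgam1 0.028, Pkm2 0.052, Slc16a1 0.17 and Slc16a3 0.62, and in the interaction Ldha 0.011, Pgam1 0.046 and Pkm2 0.12. In Akita + NACET vs Akita, Slc16a1 was at 0.057 with library size alone and Slc16a3 ranged from -0.49 to 0.23 with 1 library left out, the latter without Akita replicate 4. The interaction of Phka1 was -0.0059 with the outside-exon covariate. Depth limits Pdk4, Slc2a4, Pfkfb1, Slc16a7 and Gapdh, with under 90 reads per library.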
